A study of Mus musculus with 6 samples.

Results

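CpG island shores are the stretches that flank islands of unmethylated CpG-dense DNA. Here they were read in 6 reduced representation bisulfite sequencing (RRBS) libraries of E14 mouse embryonic stem cells, and comprised 35255 of the 369208 autosomal cytosines with a level in all 6 libraries (9.55%). Neighbouring cytosines at most 100 bp apart were joined into runs, and an island was a run of at least 10 cytosines whose mean over the 6 libraries lay below 5%. A shore cytosine lay outside islands, more than 100 and at most 2000 bp from the nearest island edge. The near shore (up to 500 bp) held 23154 cytosines, the middle shore (over 500 and up to 1000 bp) 7458 and the far shore (over 1000 and up to 2000 bp) 4643. A further 171012 cytosines lay beyond 2000 bp and are called distal, and 162941 lay in the islands themselves.

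The cells carried short hairpin RNAs (shRNAs) against Dnmt1, against Dnmt3a, against Dnmt3a and Dnmt3b together, against Dnmt3b, or against Tet1 and Tet2 together, or a control shRNA, with 1 library per group. E14 is a single established line, and no other allele or agent is named for any group. RRBS cuts DNA at CCGG and reads the fragment ends, so a shore was seen as the stretches next to such sites. The knockdown of the targeted genes could not be checked, since the files hold methylation levels and no expression. Without replicates no error between samples can be given and no p-value was computed. Each ± is the SD of 19 autosome means, a spread along the genome and not between cultures.

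Most mammalian CpGs are methylated, while CpG islands, which often overlap gene promoters, are kept free of methylation. The shore is the transition between both states and is known as a place where methylation varies between tissues. DNMT1 restores methylation on the new strand after replication, and DNMT3A and DNMT3B can methylate sites that carried none. In mouse embryonic stem cells the long DNMT3A isoform is known to bind at island flanks, and DNMT3B in transcribed gene bodies. TET1 and TET2 oxidise 5-methylcytosine, and TET1 is known to bind CpG-rich promoters. Bisulfite reads 5-methylcytosine and 5-hydroxymethylcytosine alike.

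The sequence kept for each cytosine is its 5-base context, shown here with the CpG in capitals, since it tells which shore cytosines RRBS reads most. On the plus strand these were the commonest in shores, and 4 of the 5 hold CCGG, the site that RRBS cuts.
Most frequent: ccCGg
Next: gcCGg
Next: ggCGg
Next: tcCGg
Next: acCGg
The context ccCGg made up 10.2% of plus-strand shore cytosines and averaged 7.83% methylation in control. For gcCGg these values were 7.47% and 8.33%, for ggCGg 6.06% and 3.62%, for tcCGg 5.66% and 12.2%, and for acCGg 3.99% and 10.8%. The lowest of these levels belonged to ggCGg, the context without a preceding C.

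The rule found 8954 islands with a median of 15 cytosines over 161 bp. Of these, 4892 (54.6%) had a shore cytosine, 997 on both sides and 3895 on 1 side only. That gave 5889 single shores, each 1 side of 1 island, with a median of 5 cytosines and at most 154. The islands were chosen on their levels: 50 islands just inside the 5% limit averaged 4.72%, and 44 runs just outside it averaged 5.24%. Unmethylated runs long enough to be islands are thereby absent from shores, and low levels next to an island follow in part from the rule. At the outer limit control averaged 32.3% at 1901 to 2000 bp (376 cytosines) and 33.9% at 2001 to 2100 bp (327 cytosines), so the limit at 2000 bp cuts a continuous slope.

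Some libraries stood apart. Of the shore cytosines listed in the other 5 libraries, the Dnmt1 library lacked 24.4%, against 1.26 to 3.21% for the rest, and those it lacked averaged 7.18% in the other libraries against 5.40% for those it had. The shore with the most cytosines, chr17:39984139-39985745 (mm9, 154 cytosines), averaged 10.4% in the Dnmt1 library, 4.28% in Dnmt3a, 4.92% in the double knockdown, 4.32% in Dnmt3b, 4.15% in Tet1 and Tet2, and 11.5% in control. Its island of 10 cytosines read 5.39% in the Dnmt1 library, at most 1.09% in the other 4 knockdown libraries and 6.86% in control. Control and the Dnmt1 library thus stood above the rest there, unlike their order elsewhere in shores. Without that shore the mean differences from control were -5.00 points for Dnmt1, -2.15 for Dnmt3a, -2.09 for the double knockdown, 0.154 for Dnmt3b and 1.02 for Tet1 and Tet2. In mitochondrial DNA, a background without expected methylation, the 94 listed cytosines averaged at most 0.066% in any knockdown and 0% in control.

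Shores were mostly unmethylated, and their level was higher in each farther bin in every library. Over all shore cytosines the mean level was 1.05% ± 0.27 in Dnmt1 knockdown, 3.86% ± 0.74 in Dnmt3a knockdown, 3.93% ± 0.76 in the double Dnmt3 knockdown, 6.16% ± 1.01 in Dnmt3b knockdown, 7.02% ± 1.20 in Tet1 and Tet2 knockdown and 6.03% ± 1.10 in control (SD over 19 autosomes). The near shore read 0.376% in Dnmt1, 1.02% in Dnmt3a, 1.0% in the double, 2.22% in Dnmt3b, 2.61% in Tet1 and Tet2 knockdown and 2.02% in control. The middle shore read 1.39% in Dnmt1, 4.86% in Dnmt3a, 4.89% in the double, 7.99% in Dnmt3b, 9.23% in Tet1 and Tet2 knockdown and 8.01% in control. For the far shore the levels were 3.85% in Dnmt1, 16.4% in Dnmt3a, 17.0% in the double, 22.9% in Dnmt3b, 25.5% in Tet1 and Tet2 knockdown and 22.9% in control. Dnmt1 was the lowest and Tet1 and Tet2 the highest library in each of these bins. Distal cytosines stood at 11.3% in Dnmt1, 45.7% in Dnmt3a, 48.0% in the double, 54.6% in Dnmt3b, 56.3% in Tet1 and Tet2 knockdown and 53.7% in control. Islands, chosen for low levels, read 0.125% in Dnmt1, 0.189% in Dnmt3a, 0.194% in the double, 0.551% in Dnmt3b, 0.668% in Tet1 and Tet2 knockdown and 0.465% in control.

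**Figure D1:**
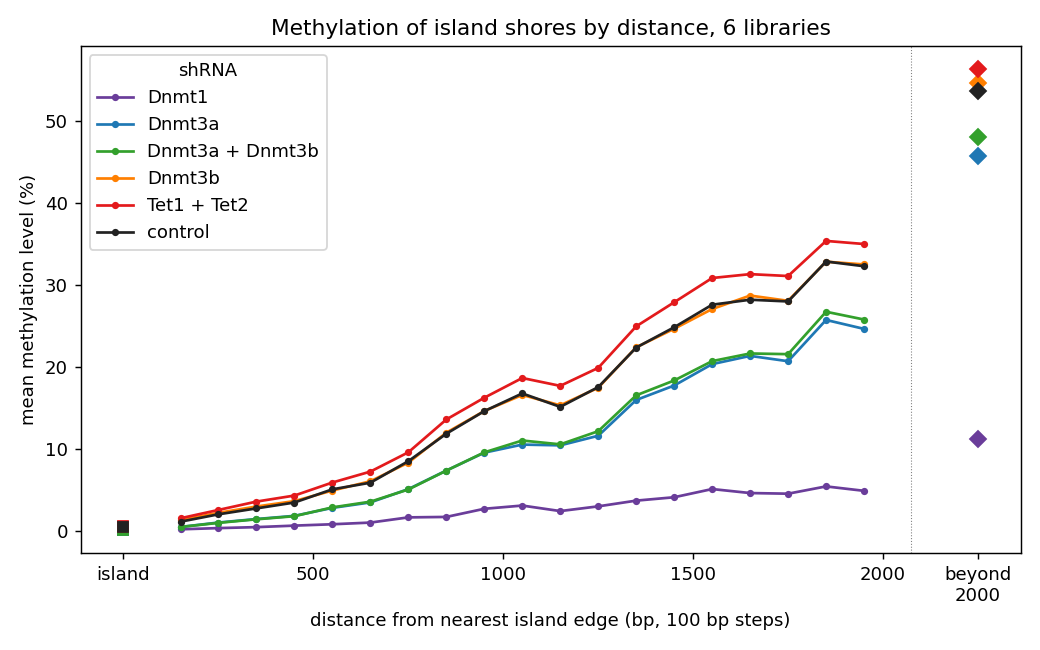
Mean methylation level (percent) of shore cytosines in steps of 100 bp from the nearest island edge, 1 line per library, with islands at the left and cytosines beyond 2000 bp at the right. Control read 1.15% in the nearest step and 32.3% in the last, and the Dnmt3b line runs along that of control while the double and Dnmt3a lines run together below it.

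In 100 bp steps the control level was 1.15% in the nearest step, 5.90% at 601 to 700 bp, 15.1% at 1101 to 1200 bp and 32.3% at 1901 to 2000 bp. Distal cytosines of control averaged 53.7%, and 26.8%, the midpoint between 0 and that mean, was first passed at 1501 to 1600 bp. The same midpoint, set for each library on its own distal mean, was passed at 1801 to 1900 bp in Dnmt3a and in the double knockdown, at 1601 to 1700 bp in Dnmt3b knockdown and at 1501 to 1600 bp in Tet1 and Tet2 knockdown. In Dnmt1 knockdown no step reached it, and the last step stood at 43.6% of that library's distal mean. The climb was uneven at this scale, and control read 32.9% at 1801 to 1900 bp but 32.3% in the next and last step.

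Most shore cytosines were unmethylated and a minority carried the mean. In control 60.9% of shore cytosines read exactly 0, and 8.79% read at least 20%, a share that was 2.60% in the near, 12.5% in the middle and 33.6% in the far shore. By the median over the 6 libraries 32851 shore cytosines (93.2%) were low (below 20%), 2028 (5.75%) intermediate and 376 (1.07%) high (above 80%). Distal cytosines split into 33.1% low, 32.4% intermediate and 34.4% high. A level of bulk DNA is a share of reads, so partly methylated alleles and a mixture of cells cannot be told apart.

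Taken shore by shore (4666 with at least 3 cytosines), levels below 1% were found in 80.3% of shores in Dnmt1, 72.9% in Dnmt3a, 73.5% in the double, 62.1% in Dnmt3b and 56.4% in Tet1 and Tet2 knockdown, and in 62.2% in control. Levels of at least 50% were found in 0 shores in Dnmt1 knockdown, 107 in Dnmt3a, 111 in the double, 159 in Dnmt3b, 187 in Tet1 and Tet2 knockdown and 162 in control. In the far shore alone (613 shores) control had 26.1% below 1% and 21.4% at 50% or more. The shores of 1 distance thus ranged from unmethylated to largely methylated.

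**Figure D2:**
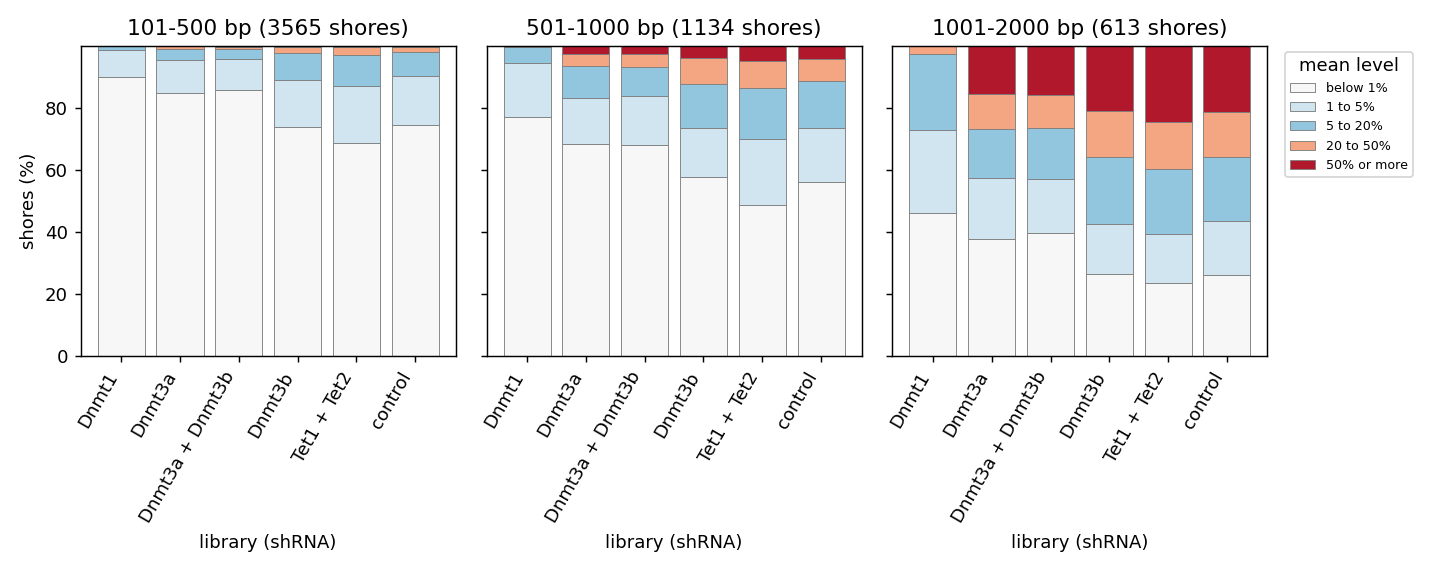
Share of single shores (percent of shores with at least 3 cytosines in the bin) by their mean level, per library, in the near, middle and far bins. In the far bin the top class, at least 50% methylated, is empty in Dnmt1 knockdown and holds 21.4% of the 613 shores in control.

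Both sides of 1 island were often low, as were most single shores, and the median gap between sides was 1.59 points in control. Among 618 islands with at least 3 shore cytosines on each side, both sides lay below 5% in control at 364 (58.9%). Of all 4666 single shores with at least 3 cytosines, 62.2% read below 1% and 16.5% from 1 to 5% in control. Many pairs are thus low for that reason alone, and a link between the sides of 1 island was not tested. At 87 islands 1 side was at least 20% and the other below 5%, and at 8 both sides were at least 20%. The mean was 7.51% left and 7.05% right of the island along the chromosome.

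Most individual near shores were unmethylated. Of 937 with at least 8 cytosines there, 363 read 0 in control, 11 read at least 20% and 1 at least 50%. The lowest 3, all at 0 in control, were chr12:3427071-3427355 (17 cytosines), chr15:89145564-89145847 (17) and chr3:132973062-132973272 (16), and in no knockdown did they average more than 0.129%. The highest was chr5:38711166-38711466 (12 cytosines), with 22.6% in Dnmt1, 61.0% in Dnmt3a, 61.0% in the double, 71.4% in Dnmt3b, 72.2% in Tet1 and Tet2 knockdown and 70.5% in control, beside an island of 2.85% in control. Its next runs, 610 to 718 bp and 1122 to 1164 bp out, read 86.1% and 93.4% in control. The next highest, chr11:61498460-61498651 and chr5:93370659-93370813, read 48.2% and 34.8% in control.

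Methylation can climb within a single shore. At chr8:36651395-36652991 (38 cytosines) 4 runs lay at 245 to 770 bp, 892 to 908 bp, 1360 to 1490 bp and 1793 to 1841 bp. Outwards they read 1.12%, 4.10%, 11.6% and 6.68% in Dnmt1 knockdown and 6.26%, 25.4%, 62.9% and 59.3% in Dnmt3a knockdown. In control they read 11.7%, 44.3%, 82.7% and 85.0%, next to an island of 0.113%. The long shore chr5:111847308-111849120 (53 cytosines) stayed low throughout, with 1.68% in Dnmt1, 4.26% in Dnmt3a, 3.82% in the double, 8.49% in Dnmt3b, 12.0% in Tet1 and Tet2 knockdown and 9.62% in control. Shores that reach equally far from their island thus differed in level.

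Several features went with the shore level, as descriptions over cytosines that share fragments and libraries. Not all are independent of the rule. Island level and number of island cytosines enter it directly, and listed density bears on which runs become islands. Cytosines in CCGG made up 24.6% of the near, 30.6% of the middle and 35.7% of the far shore, and 43.2% of distal cytosines. Those in CCGG had the higher control level in each bin, with 2.83% against 1.76% near, 10.9% against 6.73% in the middle and 30.1% against 18.8% far. In the far shore the quartile of cytosines with the fewest listed neighbours averaged 40.5% in control and the densest quartile 12.1%. With shores ranked by the trace methylation of their island into 3 groups, near shores averaged 4.998% in control beside the most methylated islands, 0.762% in the middle group and 0.38% beside the least methylated. Ranked by the number of island cytosines, near shores averaged 2.39% beside the largest and 1.8% beside the smallest islands.

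Knockdown of Dnmt1, the maintenance enzyme, went with the lowest shore methylation of the 6 libraries. The difference from control was -4.99 ± 0.93 points over all shores (lower on 19 of 19 autosomes), and -1.65, -6.62 and -19.0 points in the near, middle and far bins. Relative to control the level was 18.6% near, 17.4% in the middle, 16.8% far and 21.0% distal, so the relative loss varied little with distance. Low shore cytosines averaged 0.436% against 2.11% in control, intermediate ones 7.76% against 54.2%, and high ones 18.3% against 89.3%. Of the shore cytosines 2783 (7.89%) were 20 points or more lower and 8 (0.023%) higher, while over all 369208 cytosines 31.8% were lower and 0.00813% higher. The smaller share in shores goes with their low starting level: among intermediate cytosines it was 96.0% in shores and 96.9% distal.

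In runs of at least 5 shore cytosines, called clusters, the same loss was seen at single places. There were 3434 such shore clusters among 22524 in all, and 2971 of them read below 5% in control. Cytosines of 1 cluster can share reads, so their agreement does not come from separate observations. A cluster was called where its mean differed by 20 points or more and 80% or more of its cytosines went the same way. By this rule Dnmt1 knockdown was lower in 113 shore clusters (3.29% of the 3434) and higher in 0, while over all 22524 clusters 22.9% were lower and 0% higher. The 3 largest losses, all in the far shore, were chr10:77363710-77363855 with 16.8% in Dnmt1 knockdown against 92.4% in control, chr6:28375757-28375897 with a difference of -75.2 points, and chr8:73298663-73298774 with 9.24% against 83.7%. In Dnmt3a knockdown these read 80.3%, 83.4% and 72.1%. Of 45 shore clusters at 60% or more in control, the median share of the control level kept was 16.4% in Dnmt1, 81.9% in Dnmt3a and 81.9% in the double knockdown. The largest shares kept in Dnmt1 knockdown were at chr8:83263425-83263455, with 22.6% against 61.4%, and chr5:38711596-38711704, with 29.7% against 86.1%. Such clusters were picked for extreme values. At intermediate cytosines Dnmt1 knockdown differed from control by -46.4 points in shores and -53.6 points distal, a gap of 7.16 ± 3.48 points. In steps of the median level the gap had the other sign in 9 of 10 steps, at -2.64 to 0.70 points, and the intermediate class of shores started lower in control, at 54.2% against 64.4%. Those steps did not fully match control either, as given below.

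In Dnmt3a knockdown, which targets a de novo enzyme, shores were lower than in control. The difference from control was -2.17 ± 0.43 points over all shores (lower on 19 of 19 autosomes), with -0.998, -3.15 and -6.43 points near, middle and far, and -7.97 points distal. Relative to control the level was 50.7% near, 60.6% in the middle, 71.9% far and 85.2% distal. Low cytosines alone did not show this order, at 41.9% of control near, 40.6% in the middle, 41.1% far and 40.3% distal. Intermediate cytosines alone did, at 66.2% near, 68.4% in the middle, 71.7% far and 76.3% distal. In points their differences did not follow this order, at -14.6 near, -16.6 in the middle, -16.7 far and -15.3 distal. Their control level rose from 43.2% near to 52.4%, 58.9% and 64.4% distal, so the zones of this class are not matched in starting level. Low shore cytosines averaged 0.871% against 2.11% in control. Intermediate shore cytosines stood at 37.9% against 54.2%, and high ones at 81.9% against 89.3%. In all, 900 shore cytosines (2.55%) were 20 points or more lower and 13 (0.037%) higher, while over all cytosines 5.85% were lower and 0.0826% higher.

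**Figure D3:**
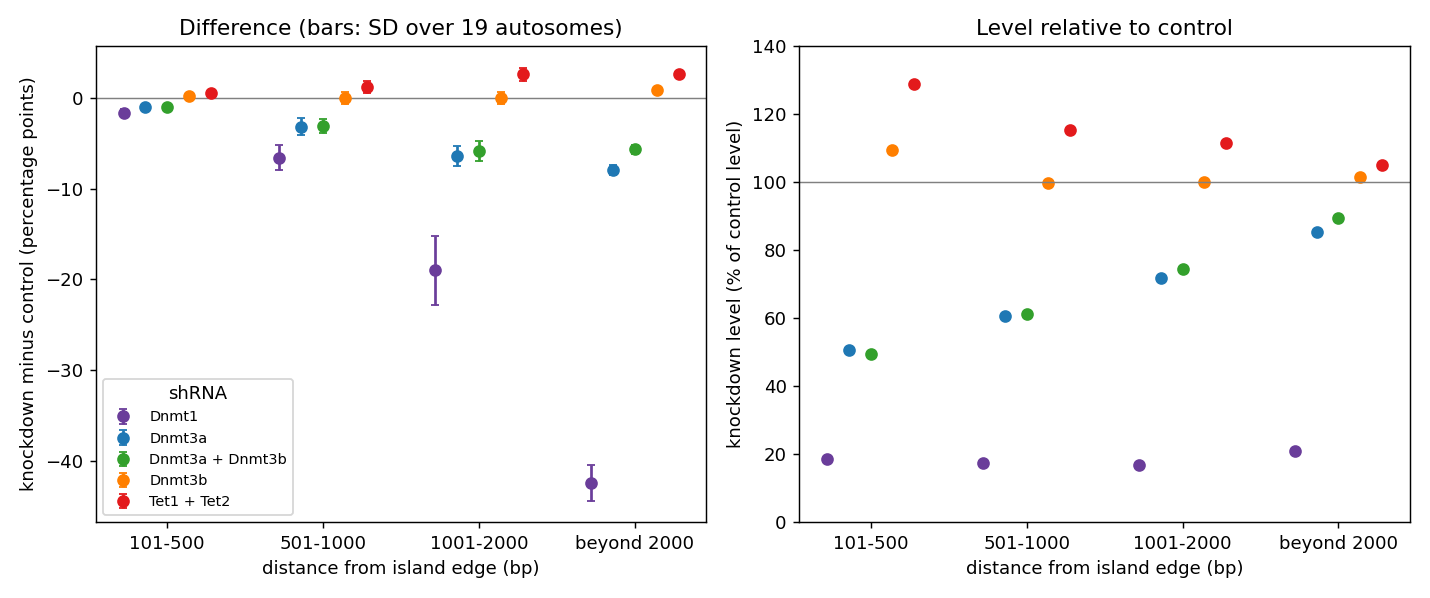
Difference from control in percentage points (left, bars are the SD over 19 autosomes) and level as a percent of the control level (right) for the 5 knockdowns, by distance from the island edge. In relative terms Dnmt3a and the double knockdown stand at 50.7% and 49.4% in the near bin, and at 85.2% and 89.5% beyond 2000 bp.

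Among clusters, 20 shore clusters (0.58%) were lower after Dnmt3a knockdown by the same rule and 0 were higher, while over all clusters 3.36% were lower and 0% higher. The largest loss was at chr7:31740312-31740422 (8 cytosines, 537 to 647 bp from the island), with 2.26% in Dnmt1, 23.3% in Dnmt3a, 33.2% in the double, 43.6% in Dnmt3b, 58.6% in Tet1 and Tet2 knockdown and 62.8% in control. The contexts of 4 of its cytosines follow, on plus-strand bases with the CpG in capitals, because this cluster had the largest Dnmt3a difference in shores.
Position 31740312, plus strand: tcCGg
Position 31740313, minus strand: cCGgc
Position 31740360, plus strand: atCGc
Position 31740403, minus strand: cCGct
The first pair is 1 CpG read on both strands, where Dnmt3a knockdown read 36.4% on the plus and 44.0% on the minus strand, and control 67.7% and 67.0%. At 31740360 the values were 18.2% in Dnmt3a knockdown and 35.5% in control, and at 31740403 they were 12.5% and 75.0%. All 8 cytosines were lower in Dnmt3a knockdown than in control, but neighbours on 1 strand can share reads and do not count as separate observations. The next largest losses were chr11:101026848-101026953, with 28.7% in Dnmt3a knockdown against 65.2% in control, and chr11:118769201-118769304, with 44.8% against 80.3%. That cluster at chr11:118769201-118769304 was also the 1 shore cluster called lower in Dnmt3b knockdown, at 59.8%. Its difference of -20.5 points and its share of 80% lower cytosines lay at the limits of the rule. The 1 plus-strand cytosine read higher in Dnmt3b knockdown, at 54.5% against 39.1% in control.

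In the double Dnmt3a and Dnmt3b knockdown, shores stood close to the level of the Dnmt3a knockdown alone, whereas farther out the double library was the less depleted of both. Its difference from control was -2.10 ± 0.42 points over all shores, with -1.02, -3.12 and -5.88 points near, middle and far and -5.65 points distal. Its level relative to control was 49.4% near, 61.1% in the middle, 74.3% far and 89.5% distal. For low cytosines alone it was 40.3% near, 40.1% in the middle, 40.4% far and 48.4% distal. For intermediate cytosines alone it was 65.5% near, 69.6% in the middle, 75.1% far and 83.1% distal, at control levels that rose with distance as given above. The double library exceeded the Dnmt3a library by 0.064 ± 0.086 points in shores (13 of 19 autosomes) and by 2.31 ± 0.19 points distal (19 of 19). These values were set side by side as differences between the same libraries, and no test between them was possible.

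Since the starting level differs between zones, the comparison was repeated within level classes. At intermediate cytosines the double knockdown differed from control by -15.1 points in shores and -10.9 points distal, a gap of -4.24 ± 1.66 points (19 of 19 autosomes with the larger loss in shores). For Dnmt3a alone the values were -16.3 and -15.3 points, a gap of -1.02 ± 1.51 points (14 of 19), which is within its spread over autosomes. At high cytosines the double knockdown differed by -5.74 points in shores and -3.53 points distal (17 of 19), and Dnmt3a by -7.37 and -5.70 points (13 of 19). Intermediate shore cytosines started lower in control, at 54.2% against 64.4% distal. The cytosines were therefore also set side by side in steps of their median level. That median includes the libraries compared, and the steps did not fully match control. Control was higher in shores in most steps, with 64.1% against 62.9% distal in the step from 50 to 60%. In the step from 80 to 90% it read 88.3% and 88.4%. In the 10 steps from 5% up the double knockdown's shore difference lay below its distal difference in 10, with gaps of -3.42 to -0.80 points, and that of Dnmt3a in 4, with gaps of -1.47 to 0.78 points.

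**Figure D4:**
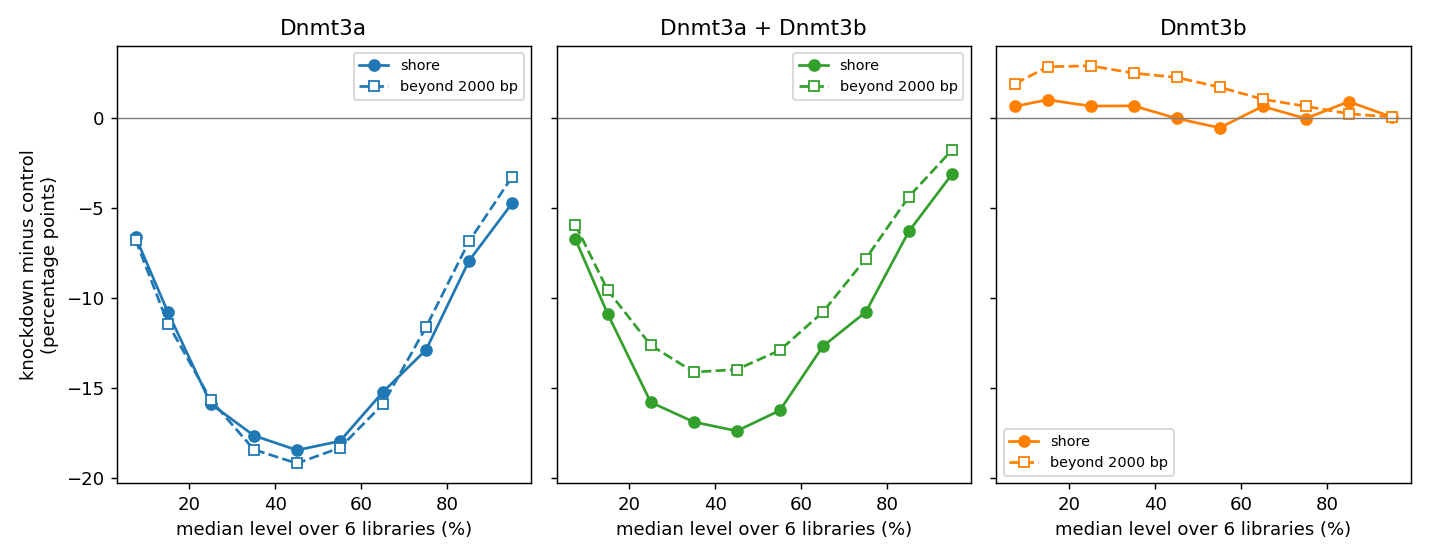
Knockdown minus control (percentage points) against the median level over the 6 libraries, in steps of the level, for shore cytosines (filled circles) and cytosines beyond 2000 bp (open squares) in Dnmt3a, double and Dnmt3b knockdown. For Dnmt3a the shore points lie below the distal points in 4 of 10 steps, while for the double knockdown the shore points lie below the distal points in 10 of 10 steps.

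The gap between both libraries widened with distance, also past the shore. At intermediate cytosines the double minus the Dnmt3a level was -0.32 ± 2.80 points near, 0.604 ± 1.84 in the middle and 2.01 ± 1.56 points far. Beyond the shores it was 2.77 ± 1.04 points at 2001 to 5000 bp, 3.09 ± 0.95 at 5001 to 10000 bp, 3.99 ± 0.72 at 10001 to 50000 bp and 5.03 ± 0.39 farther out. The shore values are thus the low end of a slope that continued beyond 2000 bp. Control at these intermediate cytosines also rose, from 43.2% near to 65.1% in the last step. The steps are therefore not matched in level. With classes set on the Dnmt3b library, which takes no part in this difference, the same steps gave 0.147, 0.127, 1.45, 2.46, 2.68, 3.68 and 4.78 points. Within ranges of listed density (1 to 2, 3 to 5, and 6 or more cytosines per window of 200 bp) the double exceeded Dnmt3a by 0.114, 1.86 and 1.70 points in shores and by 3.91, 4.70 and 4.73 points distal. Whether read depth differed with distance was not tested, since the files hold no depth.

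**Figure D5:**
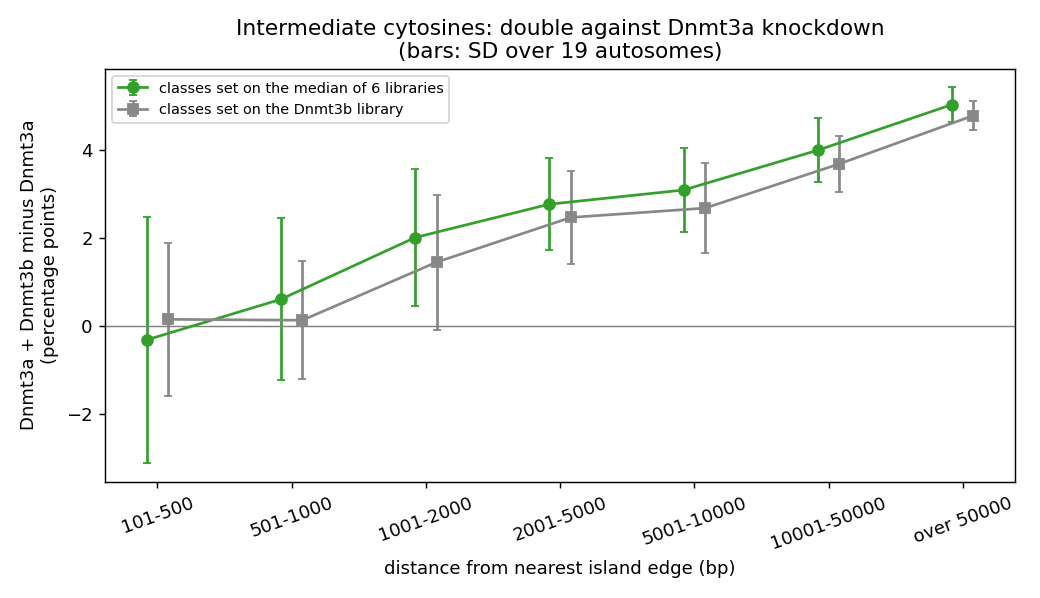
Double Dnmt3a and Dnmt3b knockdown minus Dnmt3a knockdown (percentage points) at intermediate cytosines by distance from the nearest island, with bars for the SD over 19 autosomes. The value is -0.32 in the near shore and 5.03 in the last step, and classes set on the Dnmt3b library give 0.147 and 4.78.

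Set against the sum of the Dnmt3a and Dnmt3b differences, the double difference was lower by 0.217 points in the near shore (below the sum on 19 of 19 autosomes) and higher by 1.46 points distal (below it on 0 of 19). Low cytosines lay below the sum in both zones, by a double minus sum of -0.179 points near and -0.466 points distal (19 of 19 autosomes each), and intermediate and high distal cytosines lay above it, by 2.88 and 1.96 points. In the middle and far shore the double was above the sum by 0.054 ± 0.745 and 0.56 ± 0.80 points, within the spread over autosomes. It lay below the sum on 13 of 19 autosomes in the middle and on 6 of 19 far. All 3 differences share the control library.

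Counts of single cytosines were set beside the means. Of the shore cytosines 847 (2.40%) were 20 points or more lower in the double knockdown and 17 (0.048%) higher, while over all cytosines 3.44% were lower and 0.127% higher. Among intermediate cytosines the lower share was 32.0% in shores and 18.0% distal for the double, and 34.1% and 31.4% for Dnmt3a. Of the shore clusters 17 (0.495%) were lower and 1 (0.029%) was higher, while over all clusters 1.29% were lower and 0.00444% higher. Among clusters at 20% or more in control, 12.4% of 137 shore clusters and 5.13% of 5321 distal clusters were lower in the double knockdown, against 14.6% and 13.8% in Dnmt3a knockdown.

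The largest double losses were chr5:21851919-21851951, with 36.4% in the double knockdown, 40.4% in Dnmt3a and 67.5% in control, and chr4:136390061-136390165, with 40.6%, 53.9% and 70.6%. Next came the chromosome 7 cluster given above, with 33.2% against 62.8%. The cluster that was higher lay at chr8:83263425-83263455 (5 cytosines, 504 to 534 bp out) and read 22.6% in Dnmt1, 42.6% in Dnmt3a, 82.3% in the double, 79.3% in Dnmt3b, 74.2% in Tet1 and Tet2 knockdown and 61.4% in control. Control there lay below 3 of the knockdown libraries, and all 5 cytosines were read on the minus strand within 31 bp, so they can share reads. At chr11:6346145-6346246 the level was 68.3% in the double and 69.0% in Dnmt3a knockdown against 62.4% in control, the largest share kept in Dnmt3a knockdown. It was followed there by chr10:80640832-80640898, with 85.7% against 87.7%.

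Dnmt3b knockdown shores stayed near control. The difference was 0.122 ± 0.237 points over all shores (higher on 17 of 19 autosomes). By bin it was 0.193 points near, -0.020 in the middle and -0.007 far, and 0.857 points distal. Without the largest shore, on chromosome 17, it was 0.105 points in the middle and 0.022 far. At intermediate cytosines it was 0.343 points in shores and 1.51 points distal, a gap of -1.16 ± 1.23 points (15 of 19 autosomes). Of the shore cytosines 116 (0.33%) were 20 points or more lower and 124 (0.35%) higher, while over all cytosines 0.463% were lower and 0.835% higher. Of the shore clusters 1 (0.029%) was lower and 0 were higher, while over all clusters 0.0222% were lower and 0.0799% higher.

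Tet1 and Tet2 knockdown had the highest shore level of the 6 libraries. The difference from control was 0.988 ± 0.219 points over all shores (higher on 19 of 19 autosomes), with 0.585 points near, 1.22 in the middle, 2.62 far and 2.62 distal. The level was 129% of control near, 115% in the middle, 111% far and 105% distal. At low cytosines alone it was 138% near, 127% in the middle, 135% far and 136% distal, so that order was not seen within this class. Intermediate cytosines alone kept the order, at 111.3% near, 110.1% in the middle, 109.4% far and 108.1% distal. Their gains in points did not, at 4.88 near, 5.29 in the middle, 5.55 far and 5.22 distal, and their control level rose from 43.2% near to 64.4% distal. Low shore cytosines averaged 2.83% against 2.11% in control, intermediate ones 59.5% against 54.2%, and high ones 90.4% against 89.3%. At intermediate cytosines the gain was 5.35 points in shores and 5.22 distal, a gap of 0.132 ± 1.59 points, so that within this class shores and distal DNA differed by less than the spread over autosomes. Of the shore cytosines 291 (0.83%) were 20 points or more higher and 73 (0.21%) lower, while over all cytosines 1.53% were higher and 0.357% lower.

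By the cluster rule 5 shore clusters (0.146%) were higher after Tet1 and Tet2 knockdown and 0 were lower, while over all clusters 0.222% were higher and 0.0178% lower. The largest gain was at chr19:7059932-7059967 (5 cytosines), with 9.84% in Dnmt1, 3.46% in Dnmt3a, 5.08% in the double, 24.0% in Dnmt3b, 39.7% in Tet1 and Tet2 knockdown and 8.54% in control. At chr11:97363208-97363255 the level was 56.9% in Tet1 and Tet2 knockdown, 41.4% in Dnmt3b and 34.3% in control, and at chr2:92300388-92300534 it was 38.8%, 25.1% and 17.1%. At all 3 the Dnmt3b library also read above control, and the Dnmt3a and double libraries below it.

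Within a library, plus and minus strands are read separately, but from the same DNA sample, so they are not independent samples. Of 89 shores with at least 3 cytosines on each strand and at least 20% in control, both strands were lower in 86 after Dnmt1, 84 after Dnmt3a and 79 after double knockdown. Both strands were higher in 59 after Tet1 and Tet2 knockdown. For Dnmt3b both strands were lower in 21, higher in 28 and split in 40. These shores were chosen on control, which every difference subtracts, so the choice favours falls. Distal stretches were not counted in this way, so the counts describe shores alone. At 33 intermediate shore CpGs with both strands listed, the strands differed in control by an SD of 20.3 points, which is as large as the 20 points used to call a single cytosine. The median absolute difference of these CpGs was 6.4 points, so a few wide gaps weigh on that SD. At 712 intermediate distal CpGs the SD in control was 13.1 points.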

How the data were processed

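The 6 deposited tables each hold 1 RRBS library and give, per the file contents, a methylation fraction from 0 to 1 for single CpG cytosines of 1 strand, made by the authors. CASAVA 1.8, Bismark 0.10.1 and the build mm9 are listed in the submitters' processing notes. For coverage minimum, trimming and duplicate reads, settings are not stated in the sources used here. Libraries listed between 445016 and 604227 cytosines, and those without a level (67 to 135) were left out. The fractions carry no read counts, so depth is unknown, thinly and deeply covered cytosines weigh alike, and the planned Fisher's exact test could not be run. The treatment label of the Dnmt1 library was followed where its title differs.

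Fractions were turned into percent and joined by chromosome, position and strand in pandas 2.3.3 and NumPy 2.4.6 (Python 3.11.15), and drawn with matplotlib 3.10.9. Positions are 1-based on mm9. No gene positions of that build were at hand, so no gene is named. Distances to islands were checked on random positions, and the cluster rule on simulated losses in shore clusters with a high control level. Noise was drawn for each cytosine on its own there. Reads shared by neighbours were not modelled, so false cluster calls can be more frequent in the data. Named clusters were, per knockdown, up to 3 with the largest loss and gain past the call rule, the 3 shores with most cytosines, the 3 highest and lowest near shores with at least 8 cytosines, and the best-kept clusters. Members, lists and thresholds were chosen with earlier results of these data known. Alternatives varied the island rule, the joining gap, strands, weights, sets of cytosines, call size and classes. Leaving out the largest shore and the ranges of listed density were added after the data were seen.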

Additional observations from a re-analysis of the deposited data

Results flagged for a closer look

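Chromosome X was not used in the comparisons. There, 157 islands gave 638 shore cytosines, which averaged 0.740% in Dnmt1, 2.22% in Dnmt3a, 2.41% in the double, 4.11% in Dnmt3b and 4.70% in Tet1 and Tet2 knockdown, and 3.80% in control. The values 4.11% in Dnmt3b and 4.7% in Tet1 and Tet2 knockdown lay above the control level and were singled out for that. The differences from control were 0.311 and 0.903 points. They are between single libraries and were not tested.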

How the results depend on the processing

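No paired analysis was possible because each group has 1 library, and for the same reason none could be left out. The differences over all shores kept their direction in every alternative run. That of Dnmt3b changed in the middle bin (sign kept in 5 of 14 alternatives) and the far bin (6 of 14). The shore minus distal difference at intermediate cytosines ranged over 16 alternatives between -5.39 and -2.79 points for the double knockdown and between -1.84 and 0.24 points for Dnmt3a. For Dnmt3a its sign changed with classes set on another library (0.24) and at a listed density of at least 6 (0.233), and for Tet1 and Tet2 at that density (-1.34 against 0.132). For Dnmt1 it moved to 10.7 points, against 7.16, with classes set on another library. With islands of at least 5 cytosines the differences over all shores were -11.6 points for Dnmt1, -4.77 for Dnmt3a, -4.55 for the double and 2.04 for Tet1 and Tet2, at a control level of 13.9%. In that setting 4301 cytosines were lower in Dnmt1 and 181 in Dnmt3b, and 206 were higher in Dnmt3b and 458 in Tet1 and Tet2. With islands of at least 20 cytosines the differences were -2.80 points for Dnmt1, -1.33 for Dnmt3a, -1.29 for the double and 0.597 for Tet1 and Tet2, at a control level of 3.44%. Lower counts there were 1085 for Dnmt1, 367 for Dnmt3a, 352 for the double and 68 for Dnmt3b, and higher counts 46 for Dnmt3b and 129 for Tet1 and Tet2. A joining gap of 50 bp gave -2.76, -1.31, -1.28 and 0.636 points for Dnmt1, Dnmt3a, the double and Tet1 and Tet2 at a control level of 3.38%, and a gap of 300 bp gave -11.1, -4.30, -4.12 and 1.86 points at 13.3%. With each of these settings the members differ by construction, so their counts cannot be set against the main ones. At all changed settings, here and below, the share over all cytosines was not computed. The counts thus have no background. The call sizes that follow use the same 35255 shore cytosines. A call size of 10 points gave 4327 lower cytosines for Dnmt1, 2844 for Dnmt3a, 2758 for the double and 587 for Dnmt3b, and 740 higher for Dnmt3b and 1506 for Tet1 and Tet2. At 30 points these were 232 lower for Dnmt3a, 196 for the double and 33 for Dnmt3b, and 24 higher for Dnmt3b and 57 for Tet1 and Tet2. Using every cytosine listed in control and the knockdown changes the members as well. It gave 1777 lower for Dnmt3a, 1452 for the double and 347 for Dnmt3b. Higher were 411 for Dnmt3b and 751 for Tet1 and Tet2.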
